A study of Mus musculus with 6 samples.

Results

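The 10 genes described here belong to the Bcl2 family of apoptosis regulators or to the inhibitor of apoptosis (IAP) family. The list was set by gene symbol, with earlier results of these data known, and holds the anti-apoptotic members Bcl2, Bcl2l1 and Mcl1, the pore-forming effectors Bax and Bak1, the BH3-only members Bid, Bcl2l11, Bbc3 and Pmaip1, and the IAP gene Birc3. All 10 were found among the 15643 genes of the deposited count table. Their transcripts were counted in mature medullary thymic epithelial cells (mTEChi), the epithelium that shows peripheral-tissue proteins to developing T cells. Sorting was from the thymus of NOD mice, an inbred strain prone to autoimmune diabetes, at 4.5 weeks of age. There were 3 libraries labelled Aire+/+ (745, 750 and 753) and 3 labelled Aire-/- (746, 748 and 749), and the 2 genotypes were the only comparison. Aire encodes a transcriptional regulator that medullary epithelium needs to express many peripheral-tissue genes, and the groups are called Aire+/+ and Aire-/- libraries here by their labels alone. The labels name no treatment, do not describe the allele, and do not say whether each number was 1 mouse or a pool. The p-values therefore measure the spread between these libraries, which may be technical.

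Bcl2 family proteins decide whether the outer mitochondrial membrane stays intact. Bax and Bak1 form the pores through which cytochrome c leaves the mitochondrion, the anti-apoptotic proteins hold them and the BH3-only proteins in check, and the BH3-only proteins are the stress-responsive triggers. Mature medullary thymic epithelial cells are short-lived and turn over continuously, and Aire has been studied as a factor in their death.

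Library totals ran from 1014581 to 2887321 unique molecular identifiers (UMIs, one per captured transcript end), and the 3 libraries labelled Aire-/- were the shallower ones. Transcripts assigned to Aire were not lower in 746, 748 and 749 but higher, with a level of 2268 ± 194 against 4865 ± 336 CPM (SD, n = 3 each). CPM are UMI counts scaled to a common library size with TMM factors. As the allele and the place of the counted 3′ tag in it are not described, these counts cannot check the genotype. Aire also overlaps Dnmt3l on the opposite strand, and the strand setting of the counting is not given. Dnmt3l was called higher, at 56.6 ± 8.31 against 273 ± 8.27 CPM. Every direction below rests on the labels. Markers of mature medullary epithelium were present in every library, and 7 of the 12 listed were called higher in the libraries labelled Aire-/-, Aire among them. The 12 summed to 38636 to 46444 CPM against 69460 to 80321 CPM. Most of that sum was H2-Aa, H2-Ab1 and Cd74, with means of 10859, 12017 and 14595 CPM against 18928.5, 23760 and 24308 CPM. Epcam, Cd40, Fezf2, Tnfrsf11a and Cldn4 were not called. All 6 listed markers of cortical epithelium were called higher as well, at a summed 420 to 654 against 908 to 1081 CPM. The summed fibroblast markers were at 45.0 to 83.6 against 130 to 602 CPM, highest in 746, with 2 of 3 tested called higher. Dendritic cell and macrophage markers summed to 1641 to 1977 against 1928 to 3614 CPM, highest in 749, with 1 of 8 called higher. Thymocyte markers summed to 237 to 429 against 276 to 436 CPM, and none of the 11 tested was called by edgeR, DESeq2 or limma-voom or had an unadjusted p under 0.05. Of all 11956 tested genes, 3768 had such a p in edgeR. Immature medullary or basal epithelium markers summed to 2545 to 2957 against 1394 to 3088 CPM, lowest in 749, with none of 4 called. B cell markers summed to 108 to 138 against 97.3 to 197 CPM, with 1 of 4 tested, Pax5, called higher. Endothelium markers summed to 26.6 to 31.4 against 16.3 to 32.1 CPM, with none of 3 tested called. Of the listed markers, 11 of 12 for thymocytes, 8 of 10 for dendritic cells and macrophages and 4 of 5 for fibroblasts were in the table. So were 4 of 5 for immature or basal epithelium. Every gene of the table had at least 6 UMIs in some library, so a marker at 0 in all 6 libraries could not appear in it. The part of these differences in the results below was not tested. Gapdh, a glycolytic enzyme, was nearly missing from 753 and 746 (90 and 28 UMIs, against 2245 to 4166 in the other libraries), so results are also given without that pair.

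Of the 10 members, 3 were higher in the libraries labelled Aire-/- (Bcl2l1, Bax and Bcl2), 1 was lower (Pmaip1) and 6 did not pass the test, which was edgeR's quasi-likelihood test over 11956 genes at a Benjamini-Hochberg adjusted p of 0.05. Over all tested genes 20.7% were called, 8.59% higher and 12.1% lower, so that 58.6% of calls were lower, against 78.8% when libraries were scaled by their totals alone. All 10 members passed the filter on low counts. Their median log2 fold change was 0.18, against -0.02 over all tested genes. Scaling by library totals turned the members' median to -0.03, beside -0.23 over all tested genes. It was 0.06 without 749, 0.27 without 745 and 0.28 without 748. For 5 of the 10 members every library of 1 genotype lay above every library of the other, against 36.5% of all tested genes. In bulk RNA, a larger share of cells that express a gene and more of its RNA per cell cannot be told apart.

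**Figure D1:**
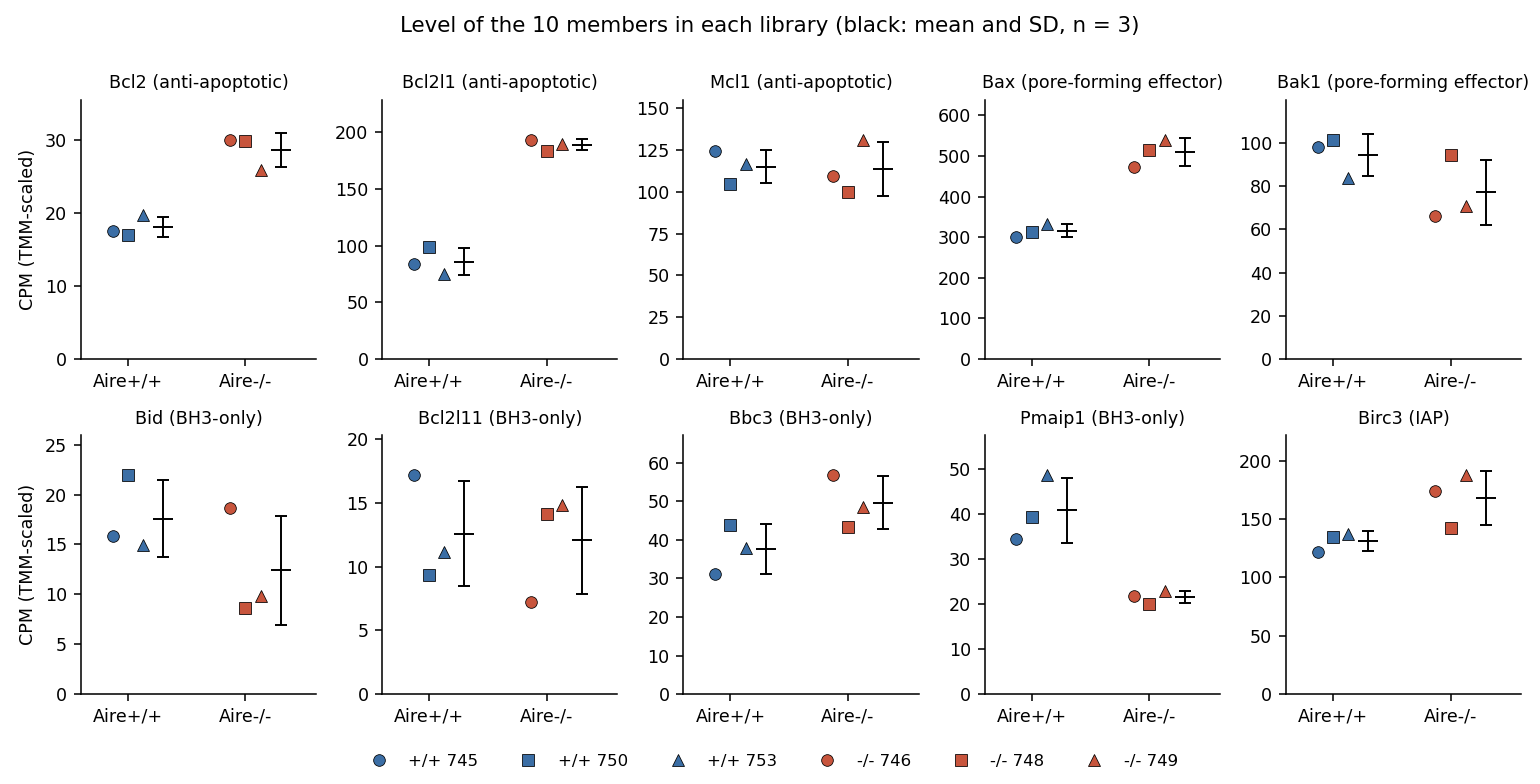
TMM-scaled CPM (vertical axes, each from 0) of the 10 members in each library, with the Aire+/+ libraries in blue, the Aire-/- libraries in red, and the mean and SD of 3 libraries in black. The genotypes are apart for Bcl2, Bcl2l1, Bax, Pmaip1 and Birc3 and overlap for the other 5 genes.

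Bcl2l1, which encodes the mitochondrial guardian Bcl-xL, showed the largest log2 change of the 10 members in this fit. Pmaip1 passed it in size under library totals (-1.13 against 0.93), and Bid did so without 753 and 746 (-1.034 against 1.025, with Bid not called). The gene spans positions 152780668 to 152831728 of chromosome 2 in mm10, on the minus strand. It had 254, 297 and 221 UMIs in the Aire+/+ libraries against 187, 339 and 308 UMIs in those labelled Aire-/-, which is 84.0, 98.9 and 74.8 CPM against 194, 184 and 190 CPM. Every library labelled Aire-/- stood above every library labelled Aire+/+, and the Aire-/- libraries lay close together. The level rose 2.20-fold, from 85.9 ± 12.2 to 189 ± 4.90 CPM (SD, n = 3 each). On the log2 scale this was 1.14 ± 0.14 (SE, edgeR adjusted p = 8.37e-05). Without 753 and 746 the log2 fold change was 1.03 (edgeR adjusted p = 0.00166).

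Bcl2, the founding member of the family (chromosome 1, positions 106538178 to 106714274, minus strand), was counted at a lower depth. It had 53, 51 and 58 UMIs against 29, 55 and 42 UMIs, or 17.5, 17.0 and 19.6 CPM against 30.0, 29.8 and 25.9 CPM. The genotypes did not overlap, although the raw counts did. The level rose by a log2 fold change of 0.66 ± 0.20 (SE, edgeR adjusted p = 0.0316), from 18.0 ± 1.40 to 28.6 ± 2.33 CPM. This call depended on the settings: it was lost under 9 of 14 alternatives, among them DESeq2 (adjusted p = 0.116), scaling by library totals (edgeR adjusted p = 0.139), and leaving out 753 and 746 (log2 fold change 0.69, edgeR adjusted p = 0.0996). Leaving out 745, 750, 753, 746 or 748 alone also ended it, with edgeR adjusted p of 0.106, 0.0999, 0.0712, 0.0521 and 0.104, while the log2 fold change lay between 0.61 and 0.73 in the 6 fits that each leave out 1 library.

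Mcl1, the short-lived anti-apoptotic protein that binds Bak1 and the BH3-only proteins, showed no detectable change. It lies on chromosome 3 at positions 95658788 to 95663176 (plus strand). Its CPM were 124, 105 and 116 in the Aire+/+ libraries against 110, 99.8 and 131 in those labelled Aire-/-, so the genotypes overlapped fully. The log2 fold change was -0.02 with a 95% interval of -0.34 to 0.30 (edgeR adjusted p = 0.949), which leaves out a change as large as that of Bcl2l1. Over 251 nt of its last 300 nt, Mcl1 matches Gm20432 at 91.2% identity, so its reads could have been divided with that copy.

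Bax, the effector that moves from the cytosol to mitochondria, rose, whereas Bak1, the effector that resides on them, did not pass the test. Bax (chromosome 7, positions 45461697 to 45466898, minus strand) had 911, 939 and 986 UMIs in the Aire+/+ libraries against 456, 948 and 877 UMIs in those labelled Aire-/-. On the CPM scale these were 301, 313 and 334 against 472, 514 and 540, with no overlap between the genotypes. The level rose 1.61-fold, from 316 ± 16.5 to 509 ± 34.5 CPM (log2 fold change 0.69 ± 0.12, SE; edgeR adjusted p = 0.00138). Without 753 and 746 the log2 fold change of Bax was 0.78 (edgeR adjusted p = 0.00391). One Bax transcript ends in 194 nt that are identical to the overlapping gene model Gm45808 on the same strand, so the counts cannot be told apart there.

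Bak1 (chromosome 17, positions 27019810 to 27029009, minus strand) stood at 98.2, 102 and 83.6 CPM in the Aire+/+ libraries against 66.2, 94.3 and 70.9 CPM in those labelled Aire-/-. Of the Aire-/- libraries, 748 lay within the Aire+/+ range and the other 2 lay below it. The log2 fold change was -0.28 with a 95% interval of -0.63 to 0.08 (edgeR adjusted p = 0.276). Bak1 overlaps Ggnbp1 on the opposite strand, which had 7 to 40 UMIs per library, and the strand setting of the counting is not given in the sources used here.

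The 250 bases upstream of an annotated start are printed for the 3 members that were called higher, because these moved in one direction. They come from RefSeq (GRCm38.p6, the build that mm10 names) and read 5′ to 3′ along each gene. Capitals mark GC boxes (GGGCGG), E-boxes (CACGTG) and the p53 half-site, searched on both strands, and the windows overlap no exon of these genes. For Bcl2l1 the start farthest upstream was taken.
Bcl2l1 (chr2:152831729-152831978, minus strand): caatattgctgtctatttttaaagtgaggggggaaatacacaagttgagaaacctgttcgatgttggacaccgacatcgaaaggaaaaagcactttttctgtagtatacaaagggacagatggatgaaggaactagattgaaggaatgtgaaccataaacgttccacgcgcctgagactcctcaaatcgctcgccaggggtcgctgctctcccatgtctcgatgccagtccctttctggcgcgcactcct
Bax (chr7:45466899-45467148, minus strand): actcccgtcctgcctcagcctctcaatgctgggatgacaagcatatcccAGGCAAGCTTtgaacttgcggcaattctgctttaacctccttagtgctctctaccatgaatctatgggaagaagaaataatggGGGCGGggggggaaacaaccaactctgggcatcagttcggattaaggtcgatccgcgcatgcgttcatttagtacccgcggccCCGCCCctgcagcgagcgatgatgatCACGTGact
Bcl2 (chr1:106714291-106714540, minus strand): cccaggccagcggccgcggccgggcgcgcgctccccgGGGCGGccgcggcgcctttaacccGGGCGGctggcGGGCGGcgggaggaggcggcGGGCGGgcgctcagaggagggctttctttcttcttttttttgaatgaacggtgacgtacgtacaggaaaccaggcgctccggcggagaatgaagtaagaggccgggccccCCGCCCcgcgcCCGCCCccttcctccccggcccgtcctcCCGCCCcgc
The Bcl2 window held 7 GC boxes at 74.8% GC, the Bax window 2 at 54% GC, and the Bcl2l1 window was 47.6% GC and had no match to these 3 motifs. Bax also had 1 E-box, which starts 9 bases before the start site, and 1 p53 half-site, 201 bases before it. Among 32851 windows of the same length, 32.7% held a GC box, 6.02% an E-box and 7.13% a p53 half-site, and the median GC content was 52.4%. Of the windows at the other annotated Bcl2l1 starts, which overlap exons and are not printed, 1 held an NF-kB site, 242 bases before its start. A match is a string of letters and not a measured binding site. The 8 other motifs searched on both strands were not found in the 3 printed windows: the NF-kB site (in 7.25% of all windows), the Ets site CCGGAAGT (2.88%), the CCAAT box (33.8%), the CRE TGACGTCA (1.55%), the AP-1 site TGANTCA (6.75%), the TATA box TATAAA (12.4%), the interferon-stimulated element (2.98%) and the STAT site TTCNNNGAA (7.02%). Counts of transcript ends do not show which start a transcript used.

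The BH3-only members did not move together. Pmaip1, which encodes Noxa, a BH3-only protein that binds Mcl1, was the only one to pass the test. It had 104, 118 and 144 UMIs in the Aire+/+ libraries against 21, 37 and 37 UMIs in those labelled Aire-/-, or 34.4, 39.3 and 48.7 CPM against 21.7, 20.1 and 22.8 CPM. The genotypes did not overlap, and the spread was narrower in the Aire-/- libraries. The level fell 1.90-fold, from 40.8 ± 7.30 to 21.5 ± 1.38 CPM (log2 fold change -0.92 ± 0.20, SE; edgeR adjusted p = 0.00507). Without 753 and 746 it was -0.79 (edgeR adjusted p = 0.0471). The gene lies on chromosome 18.

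Bbc3, which encodes Puma, a p53-induced BH3-only protein (chromosome 7, positions 16308393 to 16318205, plus strand), stood at 31.1, 43.9 and 37.9 against 56.9, 43.4 and 48.7 CPM. The Aire-/- library 748 lay just below the Aire+/+ library 750, and the log2 fold change of 0.38 did not pass the test (standard error 0.18, edgeR adjusted p = 0.177). Bid, which links death receptors to mitochondria after cleavage by caspase-8 (chromosome 6, positions 120891930 to 120916853, minus strand), had 48, 66 and 44 UMIs against 18, 16 and 16 UMIs. Its CPM were 15.9, 22 and 14.9 against 18.6, 8.68 and 9.86. The shallow library 746 lay inside the Aire+/+ range and the other Aire-/- libraries lay below it. The log2 fold change of Bid was -0.60 (standard error 0.32, edgeR adjusted p = 0.223), and without 746 it was -0.92 and passed the threshold (edgeR adjusted p = 0.0497). The 3′ end of Bid overlaps that of Bcl2l13 on the opposite strand, which had 7 to 25 UMIs per library, so reads of the pair can be told apart only by strand.

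Bcl2l11, which encodes Bim, a BH3-only protein that binds all the anti-apoptotic members (chromosome 2, positions 128126038 to 128162547, plus strand), was the least deeply counted member. It had 52, 28 and 33 UMIs in the Aire+/+ libraries against 7, 26 and 24 UMIs in those labelled Aire-/-, or 17.2, 9.32 and 11.2 against 7.24, 14.1 and 14.8 CPM. Both the highest Aire+/+ library and the lowest Aire-/- library stood apart from their groups. The log2 fold change was 0.00 with a 95% interval of -0.66 to 0.66 (edgeR adjusted p = 0.999), so a change of the size found for Bcl2 lies at the edge of what this depth leaves possible.

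Birc3 encodes cIAP2, a ubiquitin ligase of the TNF receptor complex that restrains cell death and is itself induced by NF-kB. It lies on chromosome 9 at positions 7848699 to 7873186 (minus strand). Its levels were 122, 135 and 137 CPM in the Aire+/+ libraries against 174, 143 and 188 CPM in those labelled Aire-/-. Every Aire-/- library lay above every Aire+/+ library, by a small margin for 748. The log2 fold change of 0.36 (standard error 0.14) did not pass the test (edgeR adjusted p = 0.0993), nor did it under any of the 14 alternatives, where the adjusted p ran from 0.0547 to 0.475.

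**Figure D2:**
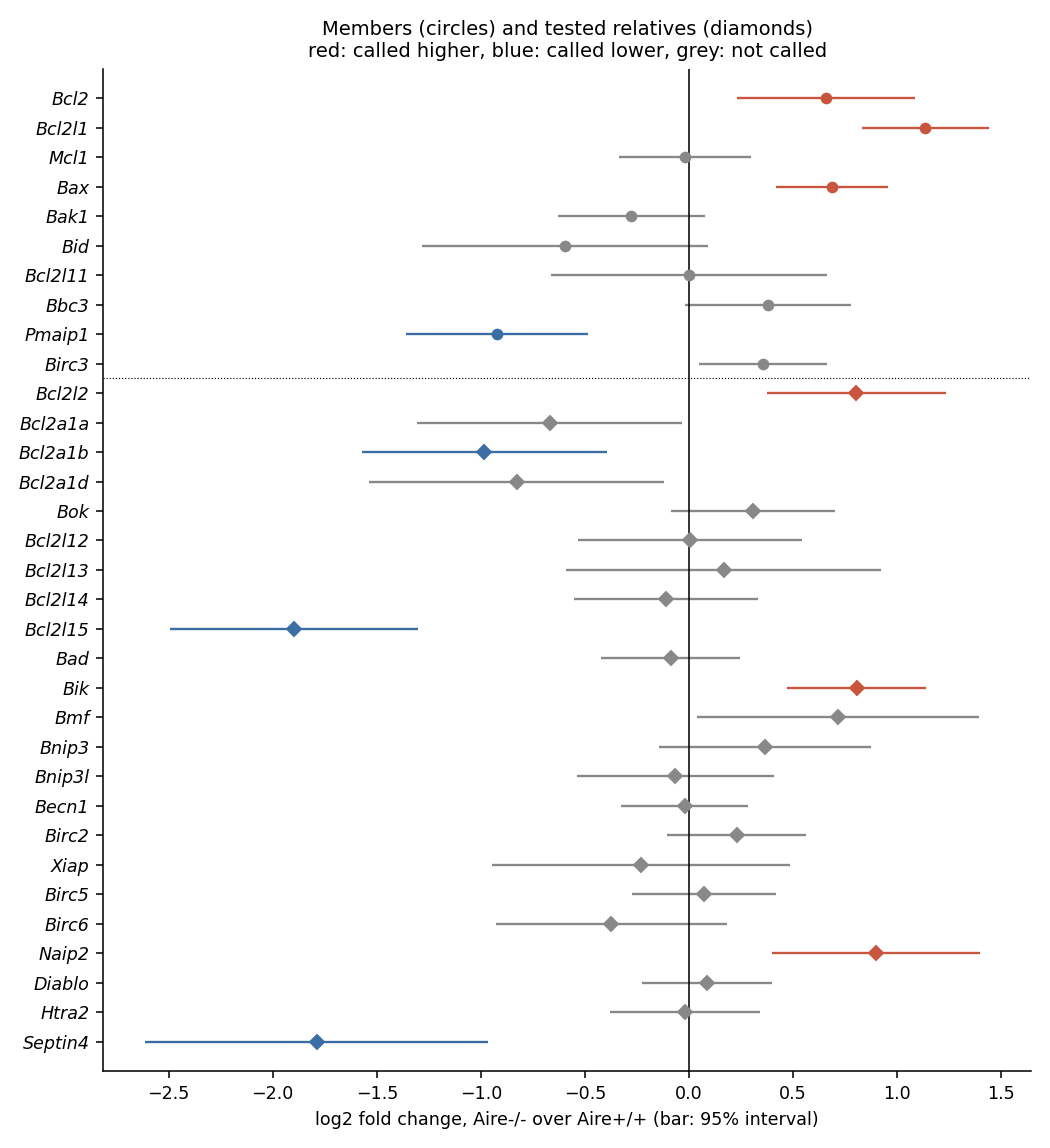
Log2 fold change of Aire-/- over Aire+/+ libraries (horizontal axis) with its 95% interval, for the 10 members (circles, above the dotted line) and 23 tested relatives (diamonds); red was called higher, blue called lower and grey not called. Bcl2l1 lies farthest to the right at 1.14 and Bcl2l15 farthest to the left at -1.90. Birc7, with 0 UMIs in every Aire-/- library, is left out.

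Ratios of UMIs between 2 members within a library do not depend on how libraries are scaled. The pairs were chosen after the values were seen, and a ratio also carries how well each 3′ end is captured, so its change between genotypes is described and not its size. Bcl2l1 per Mcl1 was 0.676, 0.946 and 0.642 in the Aire+/+ libraries against 1.76, 1.84 and 1.45 in those labelled Aire-/-. Its mean was 2.23-fold higher in the latter. Bax per Bak1 was 3.07, 3.08 and 3.99 against 7.13, 5.45 and 7.63, with a mean 1.99-fold higher. Pmaip1 per Bbc3 was 1.11, 0.894 and 1.29 against 0.382, 0.463 and 0.468, with a mean 2.50-fold lower. In these 3 pairs the genotypes did not overlap. Bcl2l1 per Bax differed less, at 0.273 ± 0.0463 against 0.373 ± 0.0323 (SD, n = 3 each), also without overlap. Bcl2l1 per Bcl2, Bax per Mcl1, Pmaip1 per Mcl1 and Birc3 per Mcl1 did not overlap either. Bid per Bcl2l11 overlapped, at 0.615 to 2.57 over the 6 libraries. The share of non-overlap among other gene pairs was not computed. As the pairs were chosen on these values, no test is given.

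**Figure D3:**
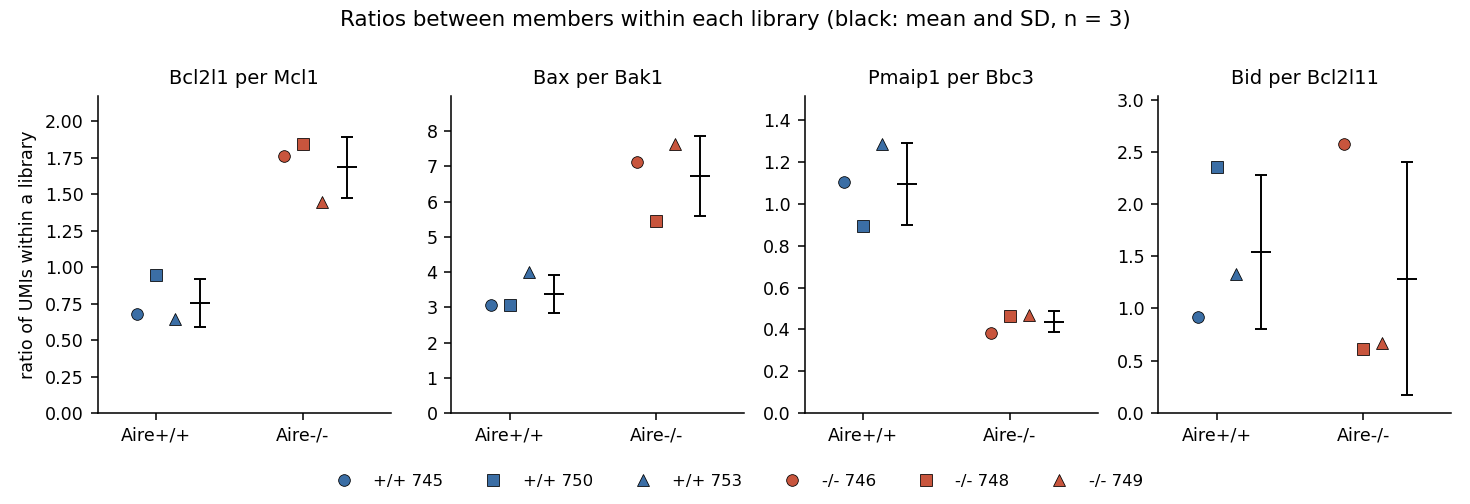
Ratio of UMIs of 2 members within each library (vertical axes, from 0), with the Aire+/+ libraries in blue, the Aire-/- libraries in red, and the mean and SD of 3 libraries in black. Bcl2l1 per Mcl1 and Bax per Bak1 are higher and Pmaip1 per Bbc3 is lower in every Aire-/- library, and Bid per Bcl2l11 overlaps between the genotypes.

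As shares of the UMIs of all 10 members, the BH3-only genes made up 12.5% ± 0.722 in the Aire+/+ libraries against 8.11% ± 0.861 in those labelled Aire-/- (SD, n = 3 each). The 3 anti-apoptotic genes made up 25.2% ± 1.37 and 28.05% ± 0.879, and the 2 effectors 47.2% ± 0.331 and 49.6% ± 3.06. A share falls when the other members rise: the summed level of the BH3-only genes was 98.5, 115 and 113 CPM against 105, 86.2 and 96.1 CPM, which overlapped. The summed anti-apoptotic level was 211 to 226 against 313 to 347 CPM, and that of the effectors 399 to 417 against 538 to 611 CPM, both without overlap. Not every gene in these sums rose: Mcl1 had a mean of 115 against 114 CPM and Bak1 of 94.4 against 77.1 CPM, neither called. Summed over all 10 genes, the level was 845 to 884 CPM against 1150 to 1242 CPM.

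Among the other genes of these families, a few moved and most did not pass the test. Of 4 other anti-apoptotic genes tested, Bcl2l2, which encodes Bcl-w, rose from 16.6 ± 1.46 to 28.9 ± 0.941 CPM (0.80 on the log2 scale at an edgeR adjusted p of 0.0107). That call was lost without 753 (edgeR adjusted p = 0.061) and without 753 and 746 together (edgeR adjusted p = 0.0662). It was also lost under library totals (edgeR adjusted p = 0.0586) and after thinning to equal depth (edgeR adjusted p = 0.168), and the last 300 nt of Bcl2l2 are shared with the read-through model Gm20521. Bcl2a1b, one of a cluster of A1 genes expressed mainly in leukocytes, was called lower and fell from 117 ± 13.1 to 58.1 ± 32.4 CPM (-0.98 on the log2 scale at an edgeR adjusted p of 0.0205). Its 3′ end is 98.7% to 99.3% identical to those of Bcl2a1a and Bcl2a1d, so the counts are uncertain between the copies. The Aire-/- library 749 stood apart for Bcl2a1b, at 95.5 CPM against 39.3 and 39.6 CPM in the others. Dendritic cell and macrophage markers summed to 3614 CPM in 749, 1943.5 in 746, 1928 in 748 and 1641 to 1977 CPM in the Aire+/+ libraries. A link between these levels was not tested. Without 749 the log2 fold change of Bcl2a1b was -1.56, without 748 it was -0.73 and not called (edgeR adjusted p = 0.0944), and without 753 and 746 it was -0.71 (edgeR adjusted p = 0.163). Leaving out 745 or 753 alone also ended the call (edgeR adjusted p = 0.0507 and 0.0825). The median log2 fold change of the 4 genes was -0.75.

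Bcl2l15, a Bcl2-like gene expressed mainly in gut epithelium, had the largest decrease of the tested Bcl2 family genes with counts in both genotypes. It had 133, 118 and 120 UMIs in the Aire+/+ libraries against 6, 31 and 13 UMIs in those labelled Aire-/- (log2 fold change -1.90 ± 0.28, SE; edgeR adjusted p = 0.00029). The gene model Gm43064 shares its last 300 nt. Bok, Bcl2l12, Bcl2l13 and Bcl2l14 were not called, and the median of these 5 Bcl2-like genes was 0.00. Among 6 other BH3-only and BH3-bearing genes, Bik, a BH3-only protein of epithelial cells, rose from 51.6 ± 6.30 to 90.7 ± 9.84 CPM (0.81 on the log2 scale at an edgeR adjusted p of 0.0021), and the other 5 were not called (median 0.17).

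Of the other IAP genes, 6 were tested. Birc7, which encodes livin, had 37, 13 and 51 UMIs in 745, 750 and 753 but 0 in 746, 748 and 749. With a floor of 3 UMIs for that genotype as a whole this is at least 16.6-fold lower. Birc7 passed the filter on low counts only through the Aire+/+ libraries, so its place among the calls supports nothing further. Naip2, a sensor of bacterial proteins in the inflammasome, rose from 19.5 ± 2.11 to 35.4 ± 11 CPM (0.90 on the log2 scale at an edgeR adjusted p of 0.0138), and part of its 3′ end matches Apoc4 and Zfp940 at 91.5% and 90.7% identity. The Naip2 call ended without 745 (edgeR adjusted p = 0.0685) and after thinning to equal depth (edgeR adjusted p = 0.14). Birc2, Xiap, Birc5 and Birc6 were not called, and the median of the 6 was -0.08, also with Birc7 at its bound. Of 3 tested IAP antagonists, Septin4, whose ARTS isoform binds Xiap, fell from 14.1 ± 3.18 to 3.80 ± 1.74 CPM (-1.79 on the log2 scale at an edgeR adjusted p of 0.00426). Septin4 had 33, 42 and 51 UMIs against 2, 7 and 9 UMIs. Like Birc7 it passed the filter on low counts only through the Aire+/+ libraries, so its call supports nothing further. The counts do not separate its isoforms, and the median of the 3 was -0.02.

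Downstream of the mitochondria, none of the 11 tested genes of the apoptosome, the caspases and DNA fragmentation was called by edgeR, DESeq2 or limma-voom, and edgeR gave none of them an unadjusted p under 0.05 either. Their log2 fold changes ran from -0.57 to 0.31, with a median of -0.17. Over all tested genes, edgeR gave 3768 of 11956 an unadjusted p under 0.05. Of 9 death receptor and necroptosis genes (median 0.28) 1 was called: Tnfrsf10b, the TRAIL receptor, rose from 20.2 ± 2.67 to 36.0 ± 9.32 CPM (0.85 on the log2 scale at an edgeR adjusted p of 0.0164), and 83 nt of its 3′ end match Nek4 at 96.4% identity. The Tnfrsf10b call ended without 745 or 748 (edgeR adjusted p = 0.0789 and 0.116), under library totals (edgeR adjusted p = 0.061) and after thinning (edgeR adjusted p = 0.069).

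Trp53, the inducer of Bax, Bbc3 and Pmaip1, and 16 other genes of the p53 list were tested, of which 3 rose and 1 fell, with a median log2 fold change of 0.27. Gadd45a, a stress-induced growth arrest gene, rose from 76.6 ± 1.28 to 127 ± 9.48 CPM (0.73 on the log2 scale at an edgeR adjusted p of 0.0014). Mdm4, an inhibitor of p53, rose by 0.72 on the log2 scale (edgeR adjusted p = 0.0236), which was lost without 745, 750, 748 or 749 (edgeR adjusted p = 0.105, 0.0934, 0.0596 and 0.0681). Library totals and thinning ended it as well (edgeR adjusted p = 0.0769 and 0.0986), and the Mdm4 3′ end matches Mdm4-ps at 96.0% identity. Btg2, an antiproliferative gene, rose by 0.63 on the log2 scale (edgeR adjusted p = 0.0495), a call lost under 9 of 14 alternatives, DESeq2 included (adjusted p = 0.058). For Btg2 it ended without 745, 750, 753 or 746 (edgeR adjusted p = 0.0945, 0.177, 0.0801 and 0.144), with a log2 fold change of 0.41 without 746. Perp, a desmosomal protein and p53 target, fell from 235 ± 39.8 to 111 ± 27.4 CPM (-1.09 on the log2 scale at an edgeR adjusted p of 0.00108). Trp53 itself did not pass the test, at 91.8 ± 11.3 against 112 ± 26.0 CPM (edgeR adjusted p = 0.332).

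Of 10 tested NF-kB pathway genes, 3 rose and none was called lower, with a median of 0.35. Nfkbia, the inhibitor that NF-kB induces, rose from 2183 ± 193 to 3926 ± 223 CPM (0.85 on the log2 scale at an edgeR adjusted p of 0.000524). Relb, the subunit that medullary epithelium needs for its development, rose from 275 ± 24.6 to 493 ± 63.8 CPM (0.84 on the log2 scale at an edgeR adjusted p of 0.000738). Traf2, the adaptor that recruits the IAP ligases, rose by 0.60 on the log2 scale (edgeR adjusted p = 0.0142), which was lost without 750 or 753 (edgeR adjusted p = 0.0615 and 0.0806) and without 753 and 746 together (edgeR adjusted p = 0.132). For Traf2 library totals gave 0.39 and thinning 0.45 on the log2 scale, neither called (edgeR adjusted p = 0.105 and 0.139). Among 6 genes of Mcl1 turnover and survival kinases (median 0.33), Pim1, a kinase that phosphorylates Bad, rose by 0.72 on the log2 scale (edgeR adjusted p = 0.0172), from 159, 169 and 174 CPM to 378, 249 and 203 CPM. It was highest in 746, without which the log2 fold change was 0.44, and leaving out 745, 750 or 753 ended that call (edgeR adjusted p = 0.0777, 0.0591 and 0.054), as did leaving out 753 and 746 together (edgeR adjusted p = 0.0856) and scaling by library totals (edgeR adjusted p = 0.0769). None of 6 tested inducers of BH3-only genes, such as Ddit3, Atf4 and Foxo1 (median 0.24), was called by edgeR, DESeq2 or limma-voom or had an unadjusted p under 0.05. Such a p was given by edgeR to 3768 of all 11956 tested genes. Over all these lists 11 of 83 tested genes rose and 5 fell, which is 19.3% called, near the 20.7% of all tested genes. The 5 include Birc7 and Septin4, which passed the filter on low counts only through the Aire+/+ libraries. Under library totals the split turned to 5 higher and 12 lower, and leaving out single libraries gave 9 (without 745) to 23 (without 749) calls.

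**Figure D4:**
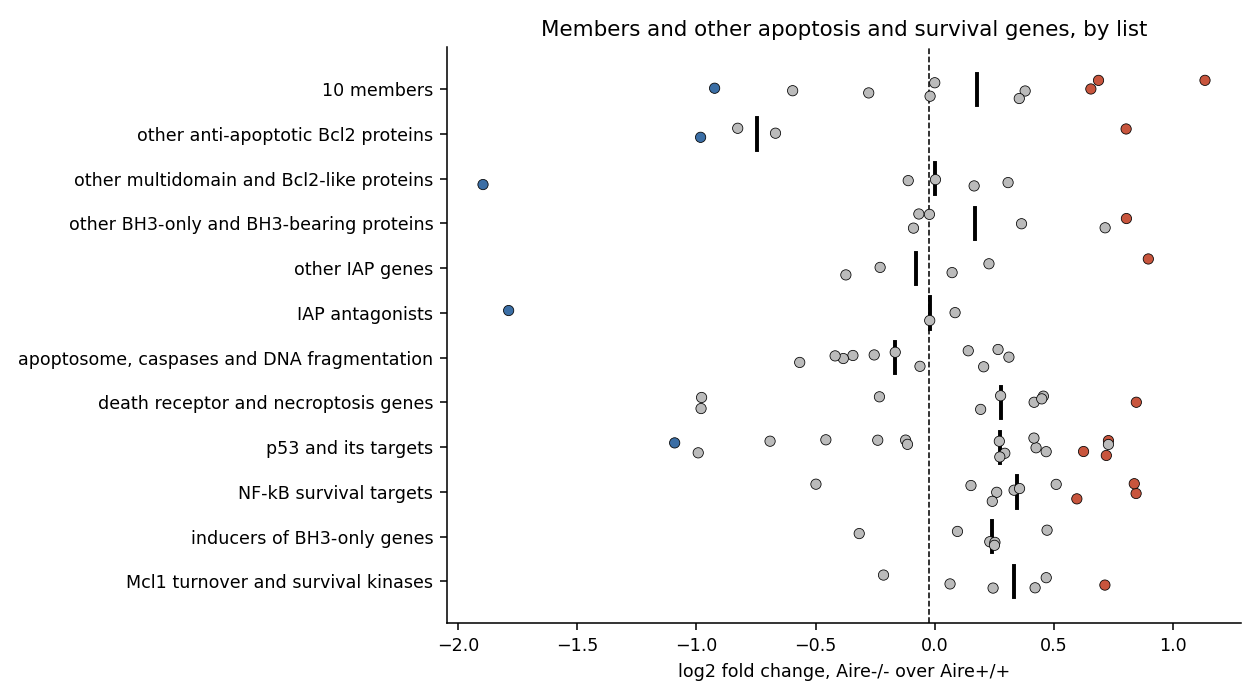
Log2 fold change of Aire-/- over Aire+/+ libraries (horizontal axis) of the tested genes of each list, 1 point a gene, with red called higher, blue called lower and grey not called. The black bars are list medians and the dashed line is the median of all tested genes, -0.02; Birc7 is not drawn but counts in its list's median.

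In the authors' deposited table, Bcl2l1 was the only one of the 10 members that was selected, with a log2 fold change of Aire+/+ over Aire-/- of -1.15 and an adjusted p of 6.98e-09. Bax (-0.70, adjusted p = 2.28e-05) and Pmaip1 (0.92, adjusted p = 0.0125) had adjusted p under 0.05 in the authors' deposited table and were not selected there. Bcl2 had -0.67 with an adjusted p of 0.116 in the authors' deposited table, and Birc3 had -0.37 with an adjusted p of 0.161. That table selects 9.42% of its genes and gives 15.1% an adjusted p under 0.05.

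**Figure D5:**
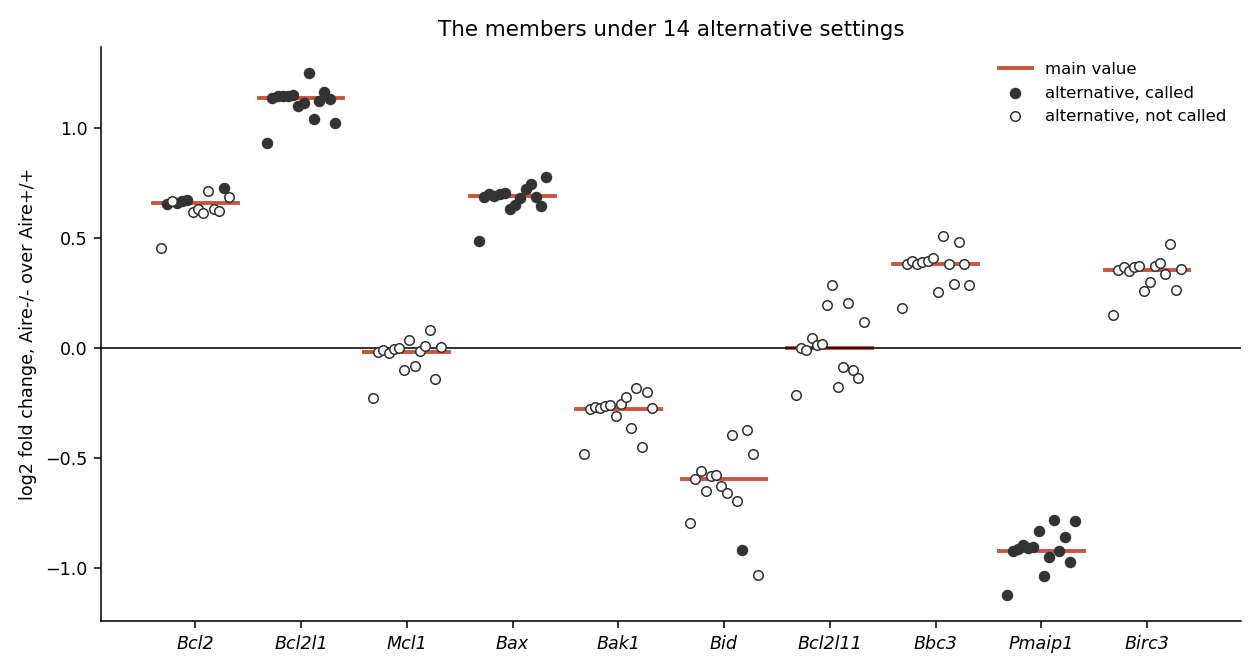
Log2 fold change of Aire-/- over Aire+/+ libraries (vertical axis) of each member in the reported fit (red line) and under 14 alternative settings (circles, filled where the adjusted p was at most 0.05). Bcl2l1, Bax and Pmaip1 are filled throughout, Bcl2 is filled under 5 settings and Bid under 1.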

How the data were processed

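MARS-seq, which tags each captured transcript 3′ end with a UMI, was used on 6 libraries. Of upstream tools, STAR 2.4.2a, HTSeq, cutadapt, bcl2fastq and DESeq2, with build mm10, appear in the submitters' processing notes. For annotation, strand setting and UMI handling nothing is given in those notes. The authors deposited raw UMI counts per gene symbol, as the headers name them. The authors' normalized signal (counts divided by 1 size factor per library, as checked on the table) and their regularized log2 values were not tested. The deposited log2 fold changes, p-values and selection are the authors' DESeq2 results, per the file headers.

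Counts were tested with edgeR 4.0.16 (R 4.3.3): quasi-likelihood fit, TMM scaling, a design of genotype alone, a low-count filter (filterByExpr, min.count 10), Benjamini-Hochberg adjustment over 11956 genes and an adjusted p of 0.05 as the threshold. Levels are TMM-scaled CPM of the tested genes' total, as mean ± SD. Intervals are 95%, from the standard error and the test's degrees of freedom. Replicate libraries differed beyond sampling noise (chi-square per degree of freedom 3.02 to 6.83). At 1014581 to 2887321 UMIs per library, a count of 0 allows 3 UMIs, or 1.04 to 2.96 CPM, which covers counting error only. Alternatives were limma-voom (limma 3.58.1), DESeq2 1.42.0, other scalings and filters, thinning to equal depth, and leaving out libraries. The test was checked on simulated counts, with 45 to 50 tested genes at each true change and fewer changed genes than were called here. For true log2 changes of 2 and -2, edgeR recovered 100% and 93.3%. At 1 and -1 it recovered 60% and 33.3%, so many changes of that size would be missed.

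The members and gene lists were chosen with earlier results of these data known. Named genes were all members, Aire, and every called gene of the other lists. Genes named without values and Gapdh, Dnmt3l, Ggnbp1 and Bcl2l13 were named after their values were seen. Positions come from GENCODE M21 (mm10). The last 300 nt of named genes' transcripts were compared by blastn 2.17.0 with every annotated transcript (at least 80 nt and 90% identity). Every per-sample column was matched to a sample.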

Additional observations from a re-analysis of the deposited data

How the results depend on the processing

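Bcl2l1, Bax and Pmaip1 kept their direction and their call under all 14 alternatives, with log2 fold changes of 0.93 to 1.25, 0.49 to 0.78 and -1.13 to -0.78. Bcl2 kept its direction (0.45 to 0.73). Members called numbered 3 or 4. Those called lower numbered 1 to 2 with single libraries left out, the second being Bid without 746. Scaling by library totals shifted the median over all tested genes to -0.23, with 2083 genes lower and 561 higher, so that 78.8% of calls were lower in place of 58.6%. Beside that shifted median, Bcl2l1 was at 0.93 and Bax at 0.49. The members that changed sign were Mcl1 and Bcl2l11, neither of them called: Mcl1 was at 0.0053 without 753 and 746 and -0.14 to 0.081 with single libraries left out, and Bcl2l11 was at -0.21 with library totals, -0.00064 with RLE factors, -0.0083 with DESeq2 and -0.18 to 0.28 with single libraries left out. Thinning to equal depth gave 1408 called genes, 819 lower and 589 higher, among the fewer genes tested. Without 753 and 746 there were 651 higher genes. With single libraries left out, 618 to 1156 were higher in the whole table. Of the other apoptosis and survival genes 16 were called, 11 higher and 5 lower. With single libraries left out 9 to 23 were called, 6 to 13 higher and 3 to 10 lower. Thinning gave 9 (6 higher and 3 lower) and library totals gave 5 higher and 12 lower. The cause of these shifts was not tested. Birc7 failed the filter without 745 or 753 and after thinning, and Septin4 after thinning. No paired analysis was made because the labels do not say whether libraries of the genotypes were paired. The smallest library, 746, limits Bcl2l11, at 7 UMIs against 26 and 24 UMIs in 748 and 749. Bid had 18 UMIs in 746 against 16 and 16 UMIs in 748 and 749, so its count was not lowest there.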
